A study of Homo sapiens with 3 samples.

Results

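The genes of the interleukin-1 cytokine system were followed in HCT116 cells, an established human colorectal carcinoma line, after knockdown of PRMT1, the main enzyme that places asymmetric dimethyl marks on arginine. The set holds 10 genes, namely IL1RN, IL1A, IL1B, IL18, IL33, IL1R1, IL1R2, IL1RAP, IL18R1 and IRAK1. They were found by gene name among the non-control probes of the arrays, which gave 17 of 58201 probes and 10 of 41810 gene names. The set was chosen by a measured value, since IL1RN was among the genes with the most lowered signal after knockdown on these same arrays. The values of IL1RN are therefore a description and carry no test.

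RNA from each of 3 cell populations was hybridised to 1 one-colour Agilent array. They were cells with a negative control (NC), cells with the first PRMT1 knockdown (PRMT1-KD1, written KD1) and cells with the second (PRMT1-KD2, written KD2). The labels describe transfection of small interfering RNAs, as do the study's methods, without saying which of the listed oligonucleotides made which knockdown. A sentence of the study's results names short hairpin RNAs instead. With 1 array per group no test was made and no difference has a replicate check. The spread between KD1 and KD2 served as a yardstick, and its robust SD was 0.38 log2 units over 17054 genes above background on all arrays. Knockdown arrays share the NC array, so an error of NC enters both changes.

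The headers give 1 slide and 1 scan time for the 3 arrays. The share of probes well above background ran from 40.8% to 42.5%, and no spot was saturated. PRMT1 itself went from a normalized log2 signal of 6.01 in control cells to 2.75 in KD1 cells and 1.45 in KD2 cells, which leaves 10.4% and 4.24% of the control signal. Epithelial genes were present on all arrays for 7 of 11 markers (EPCAM, KRT8, KRT18, KRT19, CDH1, CDX1 and CDX2), while KRT20, VIL1, LGR5 and CEACAM5 were not well above background on any array. Of the 9 myeloid markers on the array, 4 were above background for NC, 4 for KD1 and 5 for KD2. The summed normalized signal of these 9, in multiples of the array's 75th percentile, came to 2.05 for NC, 2.09 for KD1 and 3.48 for KD2. S100A8, S100A9, FCGR3A and AIF1 were not well above background on any array, and ITGAM was higher by 1.77 log2 units in KD2. By the brightest probe of each gene, 3 of the 9 fibroblast and endothelial markers were above background on each array (COL1A1, VWF and CDH5). A dimmer PDGFRB probe was so on KD1 alone. The 9 had sums of 3.64, 4.69 and 5.35 by the brightest probes, and COL1A2, COL3A1, DCN and LUM were not well above background on any. Of the 7 keratinocyte markers only KRT10 was above background on all arrays.

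Interleukin-1 alpha and beta are inflammatory cytokines that bind the receptor IL1R1, which then recruits the accessory chain IL1RAP and passes the signal through MYD88 and the IRAK kinases to NF-kappa-B. The receptor antagonist encoded by IL1RN occupies IL1R1 without recruiting the accessory chain, and IL1R2 acts as a decoy that binds the cytokine without signalling. IL-18 and IL-33 are related cytokines with receptors of their own. In the gut, epithelial cells make several of these proteins, among them the antagonist and IL-18, and they are best known for their part in inflammation and repair of the mucosa.

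The probes of IL1RN differed in their readings, and the cause was not tested. The probes that carried the main values are therefore shown by their first 30 of 60 bases, 5′ to 3′, as the files give them. Positions are those of the files, in build hg19. The brighter IL1RN probe (A_33_P3246833) lies on the plus strand at chr2:113891531-113891590 and starts at base 1859 of transcript NM_173843. The dimmer one (A_33_P3246829) lies upstream at chr2:113890639-113890698 and starts at base 967 of the same transcript. The IL1RAP probe (A_23_P170857, NM_002182) lies on the plus strand at chr3:190368968-190369027, and the IL18 probe (A_23_P104798, NM_001562) on the minus strand at chr11:112020811-112020870. Each of them covers 60 genomic bases without a gap and so crosses no splice junction. The files hold no division into coding sequence and untranslated regions.

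IL1RN A_33_P3246833: tgcaaagttccctacttcctgtgacttcag
IL1RN A_33_P3246829: ctccagaatggtctttctaatgtgtgaatc
IL1RAP A_23_P170857: aattaatggttttaaatatatgctataggg
IL18 A_23_P104798: ttgaatgaccaagttctcttcattgaccaa

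IL1RN, the receptor antagonist, was read by its brighter probe at an intensity of 83.9 ± 9.14 on NC, 29.7 ± 4.92 on KD1 and 23.5 ± 4.21 on KD2, where each error is the spot error given by the extraction software. After scaling to the 75th percentile of each array the log2 signals were -0.48 on NC, -2.36 on KD1 and -2.41 on KD2. NC stood apart and both knockdowns lay close together, a little above the lowest log2 signals called above background (-3.0 on KD1 and -2.85 on KD2). The change was -1.89 log2 units in KD1 with a combined spot error of 0.29, or 3.70-fold lower. In KD2 it was -1.94 with an error of 0.30, or 3.83-fold lower. Counted from the most lowered gene, IL1RN was number 114 of 19006 in KD1 and number 84 of 19296 in KD2. KD2 and KD1 differed by 0.05 log2 units, and the robust SD over the 500 genes nearest to IL1RN in signal was 0.45. IL1RN was chosen by its lowered signal and lay near the lowest detected signals on both arrays, so nothing is read from this closeness. Fewer cells that make a transcript and less of it per cell cannot be told apart in such bulk RNA.

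The dimmer IL1RN probe did not show the same pattern. It read 18.1 ± 4.31 on NC, 15.6 ± 4.70 on KD1 and 25.3 ± 4.51 on KD2. It was well above background on KD2 alone. Its signal on NC lay just above the lowest one called above background there, so the KD2 change is no bound. The signal was 1.30-fold higher in KD2 than in NC, with overlapping spot errors, and no fold is given for KD1. The lowered signal of IL1RN therefore rests on 1 probe with 1 spot per array. At that spot the spread between pixels was unremarkable among the 500 spots nearest in mean signal. It lay at their 36.4th, 69.8th and 40.4th percentile on NC, KD1 and KD2. With both probes averaged, the change of IL1RN in KD2 was -0.78. Probes of like signal and base composition had median changes of 0.07 (KD1) and 0.04 (KD2), and taking these off left -1.95 and -1.98.

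**Figure D1:**
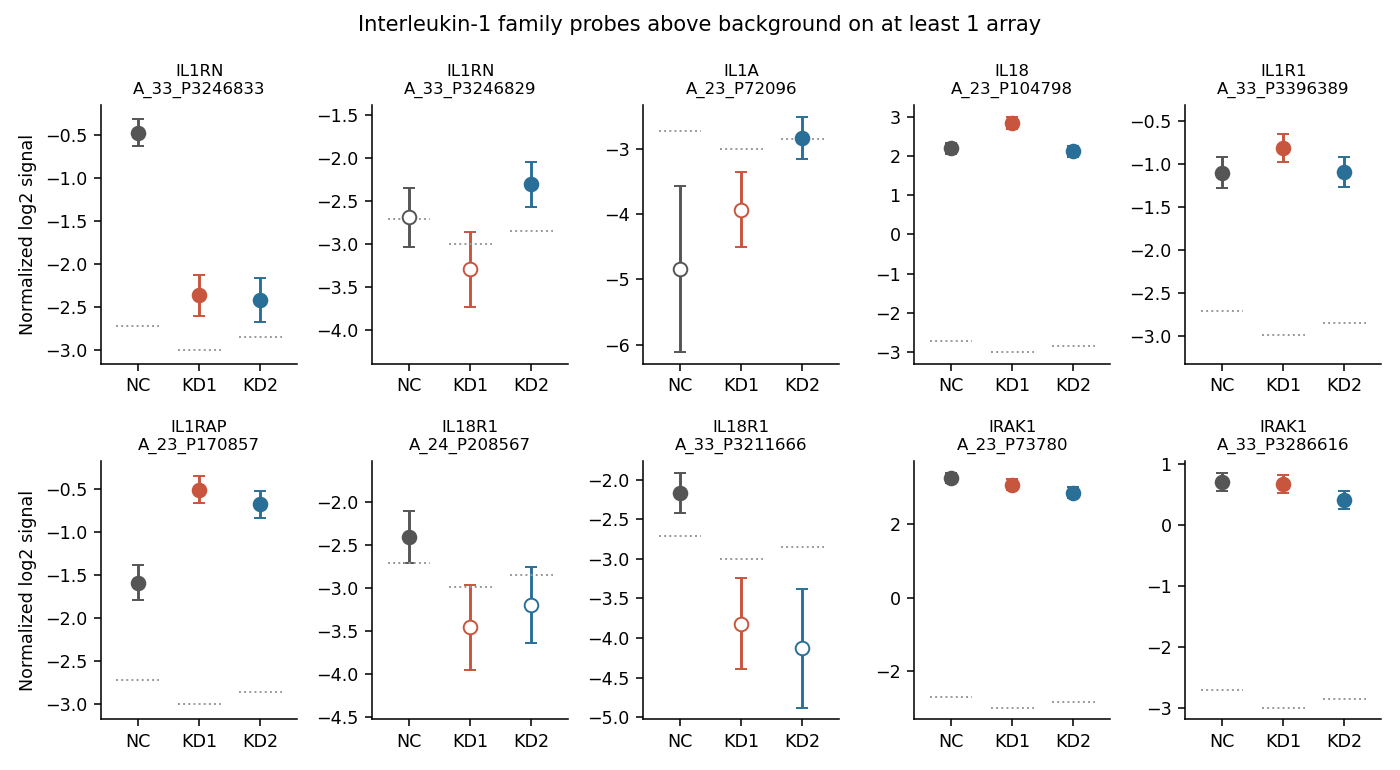
Normalized log2 signal (y axis) on each array (x axis) of the 10 probes of the set that were well above background on at least 1 array. Filled points were well above background and open points were not, bars are the spot error of the extraction software, dotted lines mark the lowest signal called above background on that array, and the y range differs between panels. IL1RN A_33_P3246833 stands at -0.48 on NC against -2.36 and -2.41 on the knockdowns, whereas IL1RN A_33_P3246829 is filled on KD2 alone.

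Across the set, 6 genes could be compared in each knockdown. IL1B, IL33 and IL1R2 were not well above background on any array, and IL1A was above it on KD2 alone, at a signal under the lowest one called above background on NC, so no fold is given for it. In KD1, 2 genes were at least 1.5-fold lower (IL1RN and IL18R1) and 2 were at least 1.5-fold higher (IL18 and IL1RAP), beside 13.0% lower and 13.4% higher among all 19006 genes compared. In KD2, 1 gene was lower (IL1RN) and 1 was higher (IL1RAP), beside 10.7% and 9.62% of 19296 genes. Both of these passed the fold the same way in both knockdowns, which 5.40% of 18477 genes did downward and 5.04% upward. IL1RN chose the set, so nothing is read from these counts. The median change was 0.06 in KD1 and -0.24 in KD2 over 6 genes, against -0.04 and -0.05 over all genes compared.

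Among the agonists, IL18, a cytokine stored as a precursor by epithelial cells, was the clearly detected one. Its probe gave intensities of 536 ± 53.7 on NC, 1098 ± 110 on KD1 and 543 ± 54.4 on KD2, which gave log2 signals of 2.20, 2.84 and 2.11. KD1 stood above the other arrays, and KD2 was close to NC. The change was 0.65 with an error of 0.20 in KD1, or 1.56-fold higher, and -0.08 with an error of 0.20 in KD2. The knockdowns differed by -0.73 (KD2 minus KD1), which is larger than the robust SD of 0.38. The KD1 value was near the fold of 1.5, which is 0.585 log2 units. It was 0.56 with quantile normalization and 0.57 with a percentile over detected probes, and taking off the median change of like probes left 0.46, whereas spike-in scaling gave 1.27 and the series matrix values 1.04. Its KD2 value turned to 0.21 with spike-in scaling and 0.02 with the series matrix values.

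IL1A, which acts as an alarm cytokine when cells are damaged, had intensities of 4.07 ± 3.58 on NC, 10.0 ± 4.0 on KD1 and 17.6 ± 3.91 on KD2. Only the last was called above background. This array also had the higher sum of myeloid markers, and the part of this in the IL1A signal was not tested. IL1B gave 4.16, 5.09 and 3.97 on NC, KD1 and KD2 and IL33 gave 3.63, 3.98 and 3.52, each about the size of its own spot error. At this signal a difference between arrays could not be seen for either gene.

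Of the receptors, the accessory chain IL1RAP had the opposite direction to IL1RN. Its probe gave intensities of 38.9 ± 5.46 on NC, 107.8 ± 11.6 on KD1 and 78.5 ± 8.66 on KD2. The log2 signals were -1.58, -0.50 and -0.68, so that both knockdowns lay above NC. The change was 1.08 in KD1, or 2.11-fold higher, and 0.91 in KD2, or 1.88-fold higher, with errors of 0.25 and 0.26. Without the median change of like probes 0.87 and 0.90 remained. Normexp background correction lowered the changes to 0.51 and 0.43, under the fold of 1.5 in both knockdowns. The 2 other IL1RAP probes, listed for transcripts NM_134470 and NM_001167931, were not well above background on any array, so the value stands only for transcripts that hold the sequence of the detected probe.

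IL1R1, the signalling receptor that IL1RAP joins, differed little. Its log2 signals were -1.10 on NC, -0.81 on KD1 and -1.10 on KD2, with changes of 0.29 (error 0.24) and 0.01 (error 0.25). Spike-in scaling moved the KD1 change to 0.91 and the series matrix values to 0.68, while median scaling turned the KD2 change to -0.14. A second IL1R1 probe was not well above background. The decoy receptor IL1R2 gave 3.61, 3.96 and 3.51 on NC, KD1 and KD2 with a probe that crosses a splice junction, and was not detected.

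IL18R1, the ligand-binding chain of the IL-18 receptor, was above background on NC alone. Its brightest probe (A_24_P208567) read 22.0 ± 4.64 on NC, 13.9 ± 4.77 on KD1 and 13.7 ± 4.17 on KD2. These give at least 1.5-fold lower signal in KD1, at the fold used, and at least 1.36-fold lower in KD2. The KD1 call ended with quantile normalization (-0.48), median scaling (-0.5), the series matrix values (-0.2) and normexp correction (-0.35), and spike-in scaling left no bound. A second probe (A_33_P3211666) read 26.0 ± 4.59, 10.8 ± 4.31 and 7.15 ± 3.71, which are at least 1.78-fold and 1.61-fold lower. Both probes were compared only through their signal on NC, so their bounds could only be downward and their shared direction is no support. The third was not well above background. The bounds of the second probe became -0.21 and -0.39 log2 units with spike-in scaling.

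IRAK1, the kinase that the receptor complex activates, was read by 2 probes above background on every array. The brighter had log2 signals of 3.26, 3.08 and 2.86 on NC, KD1 and KD2, and the other 0.71, 0.68 and 0.40. The changes were -0.18 and -0.04 in KD1 and -0.40 and -0.31 in KD2, so both probes stood lowest on KD2 and none passed 1.5-fold. The direction in KD1 depended on the scaling, since spike-in scaling gave 0.44 and 0.59 and the series matrix values gave 0.21 and 0.35.

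**Figure D2:**
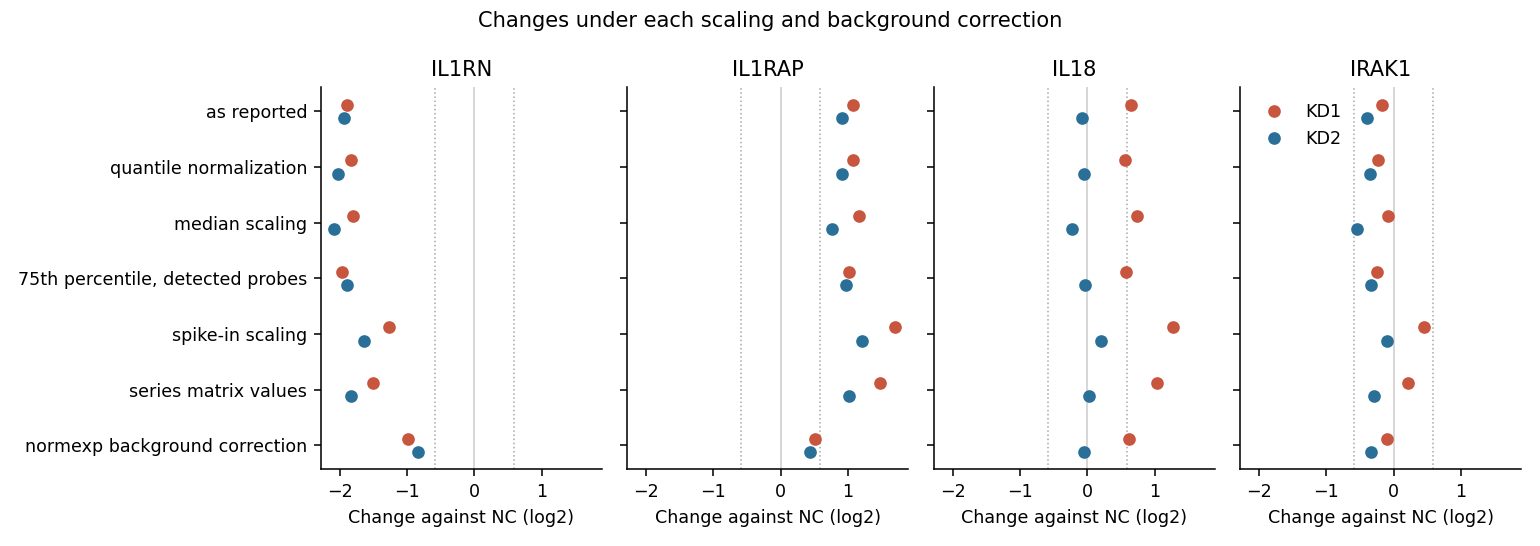
Change against NC in log2 units (x axis) of the brightest probes of IL1RN, IL1RAP, IL18 and IRAK1 under each scaling or background correction (y axis), in KD1 and KD2, with dotted lines at 1.5-fold. IL1RN lies between -2.09 and -0.84 and IL1RAP between 0.43 and 1.70 over these settings, while IL18 in KD2 and IRAK1 in KD1 lie on both sides of 0.

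The scalings shift all genes together. The median change over all genes compared was 0.59 in KD1 and 0.25 in KD2 with spike-in scaling, 0.35 and 0.05 with the series matrix values and 0.05 and -0.21 with median scaling. Relative to those medians the IL1RN changes of -1.27 and -1.64 under spike-in scaling and of -1.5 and -1.84 with the series matrix values remained downward. Normexp correction, which adds an offset and so compresses dim probes, gave -0.98 and -0.84 for IL1RN.

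The promoter sequences of IL1RN and IL1RAP are shown since these were the members past the fold in both knockdowns, in opposite directions. They hold the 250 bases before each start, 5′ to 3′ on the plus strand, from RefSeq in assembly GRCh38.p14, with matches to the searched motifs in capitals. IL1RN has 3 listed starts, of which the first and the last are printed, and IL1RAP has 1. No binding or chromatin was measured on these arrays.

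IL1RN chr2:113117721-113117970: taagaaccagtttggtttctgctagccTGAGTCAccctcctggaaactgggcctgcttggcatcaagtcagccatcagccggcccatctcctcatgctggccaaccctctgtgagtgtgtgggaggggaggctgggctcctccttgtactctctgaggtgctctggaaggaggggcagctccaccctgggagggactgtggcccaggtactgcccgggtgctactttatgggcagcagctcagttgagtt
IL1RN chr2:113127348-113127597: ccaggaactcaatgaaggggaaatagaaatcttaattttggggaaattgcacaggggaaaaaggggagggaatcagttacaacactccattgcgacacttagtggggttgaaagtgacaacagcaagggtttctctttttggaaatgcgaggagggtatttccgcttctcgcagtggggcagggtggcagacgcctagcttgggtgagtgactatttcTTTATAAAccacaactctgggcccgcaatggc
IL1RAP chr3:190513835-190514084: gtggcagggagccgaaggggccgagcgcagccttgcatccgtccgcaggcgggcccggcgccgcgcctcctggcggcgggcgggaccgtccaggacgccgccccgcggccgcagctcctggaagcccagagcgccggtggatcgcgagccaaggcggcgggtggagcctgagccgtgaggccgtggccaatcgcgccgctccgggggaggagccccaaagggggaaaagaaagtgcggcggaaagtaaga

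The motifs searched on both strands were that of AP-1 (TGANTCA), the TATA box (TATAAA) and that of NF-kappa-B. They occur in 6.57%, 10.7% and 5.21% of the 35116 promoters of this length in the table. The first IL1RN window holds an AP-1 match that begins 223 bases before the start, and the last holds TATA matches on both strands that overlap and begin 32 and 30 bases before it. The IL1RN window that is not printed and the IL1RAP window hold none of the motifs. Over the 18 promoters of the 9 members with an entry, no NF-kappa-B match was found, and AP-1 matches lay before both IL1A starts. TATA matches also began 30 bases before a start of IL1R2, 229 and 124 bases before a start of IL1R1 and 239 bases before a start of IL1A. A match is a run of letters and is no evidence of a site.

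The other ligands and receptors of the family were mostly not detected. Of 13 such genes, 11 were not well above background on any array, among them the IL-36 cytokines, IL37, the IL-33 receptor gene IL1RL1 and the IL-18 inhibitor gene IL18BP. The 2 that were compared were both lower in both knockdowns, beside 5.40% of all genes. IL18RAP, the accessory chain of the IL-18 receptor, had log2 signals of -0.18 on NC, -1.05 on KD1 and -1.76 on KD2, with changes of -0.87 and -1.58. SIGIRR, a receptor-like inhibitor of the pathway, stood at 4.59, 3.88 and 3.75, with changes of -0.71 and -0.84. In KD1 both came within 1.5-fold with spike-in scaling, at -0.25 and -0.09, and with the series matrix values, at -0.48 and -0.32, and both stood at -0.57 with normexp correction. In KD2 SIGIRR did so with spike-in scaling, at -0.54. A second SIGIRR probe gave a bound of 0.33 in KD2, opposite to the first.

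Inflammasomes are the protein platforms that activate caspase-1, which cuts the precursors of interleukin-1 beta and IL-18. Of 15 genes for inflammasomes and cytokine processing, 7 were not well above background on any array, including NLRP3, NLRC4, AIM2 and the adaptor gene PYCARD. CASP1 was above background on KD1 alone, under the lowest signal called above background on NC. In KD1, 2 of 7 compared were lower and 1 was higher, with a median of -0.28. In KD2, 3 of 6 were lower and 0 were higher, with a median of -0.51. Over all genes 13.0% were lower and 13.4% higher in KD1, and 10.7% and 9.62% in KD2, and lists this short allow no reading against them. MEFV, which encodes the inflammasome protein pyrin, stood at -0.05, -1.16 and -0.74 on NC, KD1 and KD2, with changes of -1.10 and -0.68. GSDMD, the pore protein that caspases release, stood at 0.60, -0.39 and 0.00, with changes of -0.99 and -0.60. Under spike-in scaling MEFV changed by -0.48 and -0.39 and GSDMD by -0.37 and -0.31, within 1.5-fold. In KD2 the series matrix values also put them there, at -0.58 and -0.5, as did normexp correction, at -0.48 and -0.36, and GSDMD stood at -0.55 with a percentile over detected probes. The inflammatory caspases CASP4 and CASP5 changed by -0.03 and 0.02 in KD1 and by -0.32 and -0.42 in KD2.

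Signalling below the receptor was nearly fully expressed, with 22 of 23 genes compared. In KD1, 2 were lower and 6 were higher, with a median of 0.23, and in KD2, 2 were lower and 5 were higher, with a median of 0.23. The shares over all genes were 13.0% lower and 13.4% higher in KD1 and 10.7% and 9.62% in KD2. The 4 that were higher in both, beside 5.04% of all genes, were IRAK2, TRAF6, TAB3 and UBE2N. IRAK2, a kinase of the receptor complex, stood at 1.72, 2.81 and 2.48 on NC, KD1 and KD2, with changes of 1.09 and 0.75. TRAF6, the ubiquitin ligase that receives the signal from the IRAK kinases, stood at 0.83, 1.71 and 1.68, with changes of 0.88 and 0.86. UBE2N, the ubiquitin-conjugating enzyme that works with TRAF6, changed by 1.5 and 0.76, and TAB3, which binds the resulting chains, by 1.32 and 0.91. For TAB3, 2 other probes gave 0.07 and 0.29 in KD1 and 0.51 in KD2 for each, within 1.5-fold, and with normexp correction UBE2N and TAB3 changed by 0.41 and 0.54 in KD2.

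IRAK4, the kinase that acts ahead of IRAK1, was the 1 gene of this list lower in both, at -1.39 on NC, -2.15 on KD1 and -2.02 on KD2. Its changes of -0.76 and -0.63 became -0.14 and -0.34 with spike-in scaling, -0.37 and -0.53 with the series matrix values and -0.39 and -0.26 with normexp correction. The adaptor gene MYD88 was lower in KD2 alone, with a change of -0.87 against 0.06 in KD1. MAP3K7, the kinase TAK1, changed by 1.06 and 0.58, NFKB1 by 0.51 and 0.44, and RELA by 0.05 and -0.15.

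NF-kappa-B target genes were divided. Of 27, 6 were not well above background on any array, among them IL6, CCL2, CCL20 and PTGS2, which are common targets of interleukin-1. In KD1, 1 of 20 compared was lower and 6 were higher, with a median of 0.29, and in KD2, 2 of 21 were lower and 5 were higher, with a median of 0.36. These stand beside 13.0% lower and 13.4% higher among all genes in KD1 and 10.7% and 9.62% in KD2. The neutrophil-attracting chemokines CXCL1, CXCL3 and CXCL5 were higher in both. CXCL8 changed by 0.61 in KD1 and by 0.25 in KD2, within 1.5-fold in KD2, and by 0.14 and 0.03 with normexp correction. CXCL6 was not well above background on any array. CXCL1 stood at 2.65, 4.09 and 4.60 on NC, KD1 and KD2, with changes of 1.44 and 1.96, and its second probe gave 0.78 and 1.30. CXCL3 was not above background on NC, and its change was at least 1.29 and 1.26. CXCL5 changed by 1.20 and 0.66, which became 0.45 and 0.15 with normexp correction and 0.51 in KD2 with median scaling. CXCL3 became 0.51 in KD1 with normexp correction.

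LCN2, which encodes the iron-sequestering protein lipocalin-2, was the target lower in both. It stood at 0.46, -0.96 and -1.36 on NC, KD1 and KD2, with changes of -1.42 and -1.82. For CXCL2 the probes disagreed, with 0.15 and 0.50 for the brighter and 1.56 and 1.13 for the other. The feedback inhibitor gene NFKBIA changed by 0.41 in both, and TNFAIP3, which encodes A20, by 0.03 and -0.01. The myeloid marker sum was higher on KD2 alone, and its part in the values of these immune genes was not tested.

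**Figure D3:**
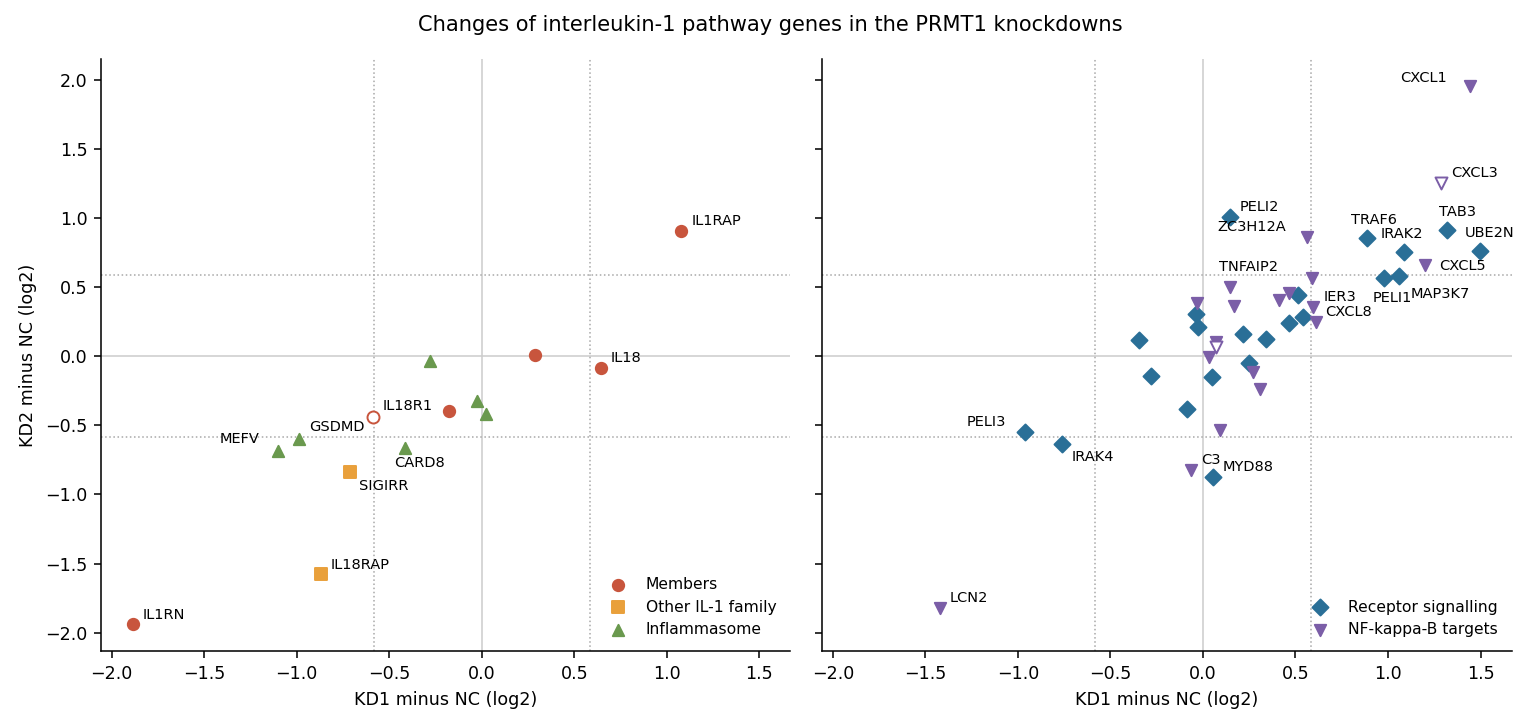
Change in KD1 (x axis) against change in KD2 (y axis), both minus NC in log2 units, of every gene compared in both knockdowns, with the set, the rest of the family and the inflammasome genes on the left and signalling and NF-kappa-B target genes on the right. Open points are bounds, dotted lines mark 1.5-fold, and both axes share the NC array, so an error of NC moves points along the diagonal. IL1RN lies at the lower left with -1.89 and -1.94, and IL1RAP at the upper right with 1.08 and 0.91.

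IL1RN lies in a cluster of family genes on chromosome 2, and the probes around it were read to describe their values. Within 500 kb of the brighter IL1RN probe there were 48 probes with 33 names, and 20 probes with 11 names had a change in at least 1 knockdown. In KD1, 4 probes were lower and 1 was higher by 1.5-fold, and in KD2, 3 were lower and 0 were higher. Over all genes, each by its brightest probe, 13.0% were lower in KD1 and 10.7% in KD2, and these few probes, IL1RN among them, are no result about the window. The brighter IL1RN probe was the 1 probe lower in both. The cytokine genes IL1B, IL37, IL36A, IL36B, IL36G, IL36RN and IL1F10, which lie on the side of lower coordinates, were not well above background on any array.

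The nearest detected genes on the other side were PSD4, which encodes an exchange factor for the small GTPase ARF6, and PAX8, a transcription factor gene. PSD4 changed by -1.11 in KD1 and -0.34 in KD2 with its brighter probe, 67.3 kb away, and by 0.20 and -0.05 with its second. PAX8, at 82.0 kb, changed by -0.57 and -0.81. CKAP2L, a mitotic spindle protein gene at -395.8 kb on the side of lower coordinates, changed by -0.52 and -0.92, and the phosphate transporter gene SLC20A1 by -0.21 and -0.29. RPL23AP7, a ribosomal protein pseudogene, had probes on both sides of 0 in KD1, at -1.01, 0.87 and 0.13. Whether signal from other copies enters these probes was not tested.

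**Figure D4:**
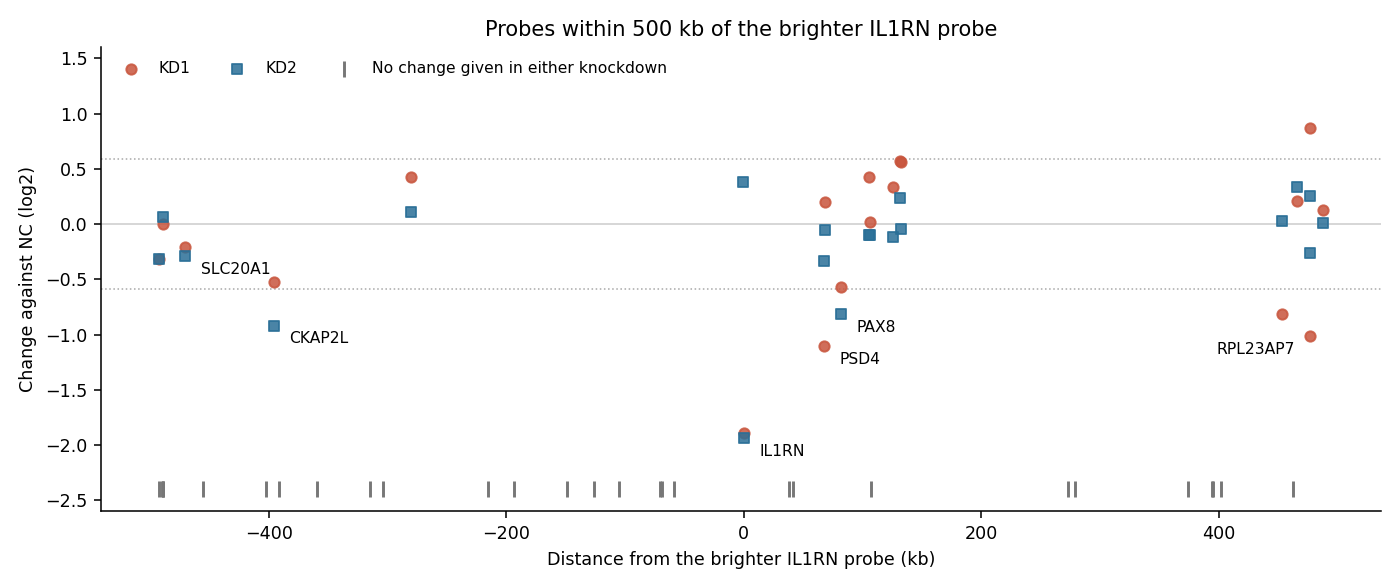
Change against NC in log2 units (y axis) of each probe within 500 kb of the brighter IL1RN probe, by distance along the chromosome in kb (x axis), in KD1 and KD2. Grey ticks are probes with no change given, and dotted lines mark 1.5-fold. The square at 0.38 near distance 0 is the dimmer IL1RN probe, which was not called above background on NC. The values of -1.89 and -1.94 at distance 0 are the lowest in the window.

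The genes whose pair of changes was nearest to that of IL1RN, among 12568 genes with a symbol above background on all arrays, were TTI2 at a distance of 0.28 log2 units, CD209 at 0.40, LCN2 at 0.48, CCDC74A at 0.53 and SH2D3C at 0.61. The distance is taken over 2 changes that share the NC array. TTI2, a cofactor in the maturation of PI3K-like kinases, changed by -1.80 and -2.20. CD209, a lectin gene of dendritic cells, changed by -1.97 and -1.54. LCN2 is the NF-kappa-B target described above, and CCDC74A and SH2D3C changed by -1.5 and -1.58 and by -1.53 and -1.44.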

How the data were processed

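Total RNA of HCT116 cells was labelled with Cy3 and hybridised to Agilent SurePrint arrays with 60-base probes, 1 array for each of NC, PRMT1-KD1 and PRMT1-KD2. The authors deposited the scanner output of Agilent Feature Extraction 10.7.1.1, in which the processed intensity of each spot had been background-corrected within its array, with no scaling from one array to another. Their series matrix, averaged over the spots of a probe and likewise unscaled, served as an alternative. A second control sample named in the study's methods and the SMARCA4 knockdowns were not analysed here.

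Control spots and outlier spots (non-uniform, or far from the other spots of a probe) were left out, which removed 130 probes. Spots of a probe were averaged as log2 intensity, and the 75th percentile of each array's non-control probes was taken off. The brightest probe on average stood for a gene, and 1507 probes without a gene name were not counted. Of 41749 gene names, 21043 matched a RefSeq symbol of assembly GRCh38.p14. A comparison included a gene that at least 1 of its arrays showed well above background. A value not above background was raised, where it lay under it, to a floor, the lowest scaled signal of that array's probes well above background, so that the change is a bound. No fold is given where the bound is under 1. The threshold of 1.5-fold follows the study's methods, whose p-value needs replicates. The spot errors of the extraction software cover the error of a spot only, and the number of arrays limits the precision.

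The members and lists were chosen with earlier results of these data known. The genes named were PRMT1, every member with every probe, in each other list the genes past 1.5-fold in the same direction after each knockdown and those that define the list, genes within 500 kb of the brighter IL1RN probe, and the 5 genes with the nearest pair of changes. The alternatives were median scaling, quantile normalization, limma's normexp correction (offset 50), a percentile over detected probes, 8 spike-in probes, the series matrix, outlier spots kept, other filters, all probes and a fold of 2. Subtraction of the median change of 500 like probes was added after seeing the data. The counting was tested on simulated data in which every probe was above background, so the floor, the bounds and the filter were not tested. Python 3.11.15 with matplotlib 3.10.9, pandas 2.3.3 and numpy 2.4.6 and limma 3.58.1 in R 4.3.3 were used.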

Additional observations from a re-analysis of the deposited data

How the results depend on the processing

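The IL1RN change stayed downward under each of 10 alternatives in both knockdowns, which describes the value that chose the set. Leaving out the floor could not move it, nor could averaging its probes in KD1, where the dimmer one gave no fold. None of the alternatives read the dimmer probe alone. Among the other members, the directions of IRAK1 in KD1 and of IL18 and IL1R1 in KD2 turned with the scaling, as given with their values above. In KD1 the IL1RN change of -1.89 moved to -0.98 with normexp correction, -1.27 with spike-in scaling and -1.50 with the series matrix values. In KD2 its change of -1.94 moved to -0.84 with normexp correction and to -0.78 with the average of all its probes. The count of members past 1.5-fold differed from the reported one in 9 of 13 alternatives in KD1, between 2 and 5, and in 5 of 13 in KD2, between 1 and 4. It differed by over 1.5 times in 3 of them in each knockdown. The count of 4 in KD1 became 2 with normexp correction, 2 with quantile normalization and 2 at a fold of 2. The count of 2 in KD2 became 1 with normexp correction, 1 at a fold of 2 and 4 with no filter and no floor. The cause was not tested, except that a fold of 2 is stricter and no filter compares all 10 genes. No paired analysis was possible because each group has 1 array, and for the same reason no array could be left out. Signal over background is a limit beside the single array per group. IL1RN on both knockdown arrays and IL18R1 on NC lay close to the lowest signals called above background. IL18R1 was not well above background on either knockdown array.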

Other observations

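Some marker genes that were read to check the cells had changes of their own. CDH1, the epithelial cadherin gene, was higher by 0.97 log2 units in KD1 and 0.76 in KD2. The keratin gene KRT8 was lower by the fold of 1.5 in KD1 alone by its brightest probe, with changes of -0.87 and -0.40. Its other probes gave -0.28 and -0.35 in KD1 and -0.17 and -0.30 in KD2, all within 1.5-fold. The keratin genes KRT18 and KRT19 changed by -0.52 and -0.57 and by -0.29 and -0.20, and EPCAM by 0.30 and -0.01. The other KRT18 probe gave -0.60 and -0.69, past the fold of 1.5 in both knockdowns. CDH5, the cadherin gene of endothelial cells, changed by 1.48 and 0.55, and the collagen gene COL1A1 by 0.28 and 0.62. Of the myeloid markers, CD14 changed by 0.05 and 0.57, the receptor gene CSF1R by -0.12 and 0.59, the integrin gene ITGAM by 0.48 and 1.77 and the adaptor gene TYROBP by -0.29 and -0.02. These values have no replicate check.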
